A study of Mus musculus with 18 samples.

Results

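The 10 genes described here encode the first steps of signalling from the T cell receptor: the kinases Lck, Fyn and Zap70, the adaptors Lat and Lcp2, the effectors Plcg1 and Vav1, and the inhibitors Csk, Ptpn22 and Ptpn6. They were chosen by name as known members of the pathway, with earlier results of these data known. The rule for the choice sets no threshold on a measured value. These genes are 10 of the 45706 genes listed in each table, and all 10 passed the filter on low counts that left 12255 tested genes. The data are 18 RNA-seq libraries of purified CD8+ cells of OT-I mice, a strain whose transgenic receptor recognises the ovalbumin peptide OVA(257-264).

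When the receptor binds its peptide, Lck and Fyn phosphorylate the tails of the CD3 and zeta chains, and Zap70 docks there and is activated in turn. Zap70 then phosphorylates Lat at the membrane and Lcp2, also called SLP-76, and on this scaffold Plcg1 and Vav1 are brought together. Plcg1 makes the second messengers that lead to calcium flux and to Ras and protein kinase C signalling, while Vav1 acts on Rac and the actin cytoskeleton. Csk adds the inhibitory phosphate of Lck and Fyn, Ptpn22 removes the activating phosphates of Lck and Zap70, and Ptpn6, also called SHP-1, is the phosphatase recruited by many inhibitory receptors. Exhausted CD8+ T cells, which arise under lasting antigen, are known for weak responses through this receptor.

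The cells came from 4 groups. Repeat peptide stimulated cells received peptide daily until day 5, with IL-15 and IL-7 in the medium, and kept peptide until harvest, whereas single peptide stimulated cells were exposed once, washed and kept without peptide. From day 5 to harvest on day 8 each kind of cell was given DMSO or 1 µM ibrutinib, a covalent inhibitor of the kinase Btk that also binds related kinases. This gave 4 libraries of repeat cells with DMSO, 5 of repeat cells with ibrutinib, 5 of single cells with DMSO and 4 of single cells with ibrutinib, from 6 experiments lettered A to F. Experiments A to D hold all 4 groups, E holds repeat cells with ibrutinib only and F holds single cells with DMSO only. The strain entry gives OT-1 mice WT for every library. A separate genotype entry reads INHB-1 left over for A and PKC igoni-2 for F, and carries a number with btk KO or BTK KO for B to E. This entry was taken to name an experiment, which limits how surely the cells of B to E can be called wild type. Btk itself had 0 to 27 rounded counts in a library, too few to check that entry. The cells were cultured T cells of a single receptor specificity and not cells exhausted in an animal.

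The total expected count, RSEM's estimate of fragments per gene summed over genes, ran from 23445922 to 51995372 per library. The 10 genes had no fractional count in any library. Cd3e was at 268.8 TPM or more and Cd8a at 312.1 TPM or more in every library, while Cd4 reached at most 0.17 TPM, the B cell marker Cd79a 0.18, Adgre1 0.09 and Csf1r 0.03 TPM. TPM is a level scaled for transcript length and for the library's total. Among markers of other cells, the summed TPM of Cd4, Foxp3 and Zbtb7b was 15.4 to 20.8 in repeat and 1.87 to 11.2 in single cells with DMSO. Within that sum Zbtb7b was higher in repeat cells, at 15.3 to 20.7 against 1.00 to 5.60 TPM, and Foxp3 lower, at 0 to 0.08 against 0.77 to 5.55 TPM, and both were called. The NK cell genes Ncr1 and Klrb1c summed to 2.64 to 11.4 TPM against 0.59 to 2.63, and Klrb1c, at a log2 fold change of 1.79, was called. Ncr1 was at -4.56 (adjusted p = 0.0309 by edgeR's quasi-likelihood test). It was not called, only because its normalized counts averaged 4.89, under the mean count that a call required. The B cell gene Cd79b was called lower, with 1.15 to 2.28 TPM in repeat and 3.12 to 7.08 in single cells with DMSO. The 5 myeloid markers summed to at most 6.23 TPM and the 2 erythroid markers to at most 1.84 TPM in any library. The part of other cells in the differences below was not tested. In bulk RNA, fewer cells with a transcript and less transcript per cell cannot be told apart.

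The promoters are shown for the pair of genes that fell most and the pair that rose most with repeat peptide, so that genes moving in opposite directions can be set beside each other. Each window, from RefSeq on GRCm38.p6, runs from 250 bases before to 50 bases after the annotated start, 5′ to 3′ on the strand of the gene, and all 10 genes had at least 1 window among 15 windows in all. Capitals mark short motifs searched on both strands: GGAAGT for ETS factors, GGAAAA for NFAT, TGTGGT for RUNX factors, GGGCGG for SP and KLF factors, TGACTCA for AP-1 and TATAAA for a TATA box. GGAAGT and GGAAAA share their first letters.
Plcg1, chr2:160731060-160731359, plus strand: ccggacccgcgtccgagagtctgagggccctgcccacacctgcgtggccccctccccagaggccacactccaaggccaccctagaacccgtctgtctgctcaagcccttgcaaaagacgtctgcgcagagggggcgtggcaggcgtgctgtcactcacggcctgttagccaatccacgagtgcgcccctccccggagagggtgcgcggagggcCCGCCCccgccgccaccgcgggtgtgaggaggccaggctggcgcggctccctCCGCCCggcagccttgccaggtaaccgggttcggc
Lat, chr7:126369519-126369818, minus strand: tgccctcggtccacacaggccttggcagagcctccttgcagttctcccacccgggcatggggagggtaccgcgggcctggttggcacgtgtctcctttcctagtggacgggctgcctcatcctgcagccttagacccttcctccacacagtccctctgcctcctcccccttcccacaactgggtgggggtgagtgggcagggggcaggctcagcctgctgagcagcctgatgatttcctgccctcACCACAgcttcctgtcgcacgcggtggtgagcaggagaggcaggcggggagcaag
Lcp2, chr11:34046678-34046977, plus strand: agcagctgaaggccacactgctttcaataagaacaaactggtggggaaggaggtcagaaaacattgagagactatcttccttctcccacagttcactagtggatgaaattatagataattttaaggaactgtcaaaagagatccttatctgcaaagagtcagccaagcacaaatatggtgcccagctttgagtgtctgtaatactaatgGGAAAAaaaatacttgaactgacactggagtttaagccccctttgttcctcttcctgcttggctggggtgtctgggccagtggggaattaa
Ptpn6, chr6:124738660-124738959, minus strand: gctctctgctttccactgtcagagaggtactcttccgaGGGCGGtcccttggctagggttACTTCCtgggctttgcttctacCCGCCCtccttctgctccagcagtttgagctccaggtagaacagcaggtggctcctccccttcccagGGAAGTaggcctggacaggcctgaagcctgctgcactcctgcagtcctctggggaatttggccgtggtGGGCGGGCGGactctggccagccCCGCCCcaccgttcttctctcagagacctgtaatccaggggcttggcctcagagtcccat

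In these windows Plcg1 held 2 SP or KLF matches, Lat 1 RUNX match, Lcp2 1 NFAT match, and Ptpn6 2 ETS and 5 SP or KLF matches, of which a pair overlap. GC content was 72.0% for Plcg1, 65.7% for Lat, 61.7% for Ptpn6 and 43.3% for Lcp2. Over the windows of all 10 genes, 6 genes had an SP or KLF match, 5 an ETS match, 4 a RUNX match, 3 an NFAT match, 1 (Ptpn22) a TATA match and 0 an AP-1 match. Among all 32851 promoter windows of the table, 35.7% held the SP or KLF letters, 23.8% the ETS, 16.8% the RUNX, 23.4% the NFAT, 13.6% the TATA and 5.20% the AP-1 letters. Some genes have more than 1 window, so counts of genes and shares of windows are not on the same footing. These are matches of letters only.

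Lck was the most abundant of the 10 transcripts in every group, above the next gene in every library, and Ptpn6 moved most through the order. In TPM, Lck was 505 ± 11.04 (SD, n = 4) in repeat cells with DMSO, 529 ± 61.6 (n = 5) in repeat cells with ibrutinib, 608 ± 74.4 (n = 5) in single cells with DMSO and 575 ± 61.6 (n = 4) in single cells with ibrutinib. In the same order of groups, Ptpn6 was 381 ± 10.9, 258 ± 45.3, 186 ± 20.5 and 110 ± 17.6 TPM, and Lat was 288 ± 21.4, 355 ± 41.0, 418 ± 55.3 and 436 ± 64.9 TPM. Ptpn6 had rank 2 in repeat cells with DMSO, above Lat in all 4 libraries with no overlap of their ranges. It had rank 3 in repeat cells with ibrutinib and in single cells with DMSO, and rank 6 in single cells with ibrutinib. In single cells with DMSO its range overlapped that of Zap70, the next in order, and Ptpn6 was the higher gene in 2 of 5 libraries.

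The lower end of the order was held by Plcg1 and Vav1 in repeat cells. Mean TPM in repeat cells with DMSO ran from Zap70 at 227 ± 22.2, Csk at 171 ± 12.7, Ptpn22 at 155 ± 18.1 and Lcp2 at 144 ± 9.07 to Fyn at 109 ± 18.7, Vav1 at 75.7 ± 6.91 and Plcg1 at 54.7 ± 9.20. Of these neighbours only Csk and Ptpn22, and Ptpn22 and Lcp2, had ranges that overlapped. In single cells with DMSO the ranges of all neighbours from Ptpn6 down to Vav1 overlapped, with Plcg1 at 112 ± 39.4 TPM above Lcp2 at 93.3 ± 17.3. Among all tested genes in repeat cells with DMSO, mean TPM put Lck at percentile 98.2 and Plcg1, the lowest of the 10, at percentile 80.0.

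**Figure D1:**
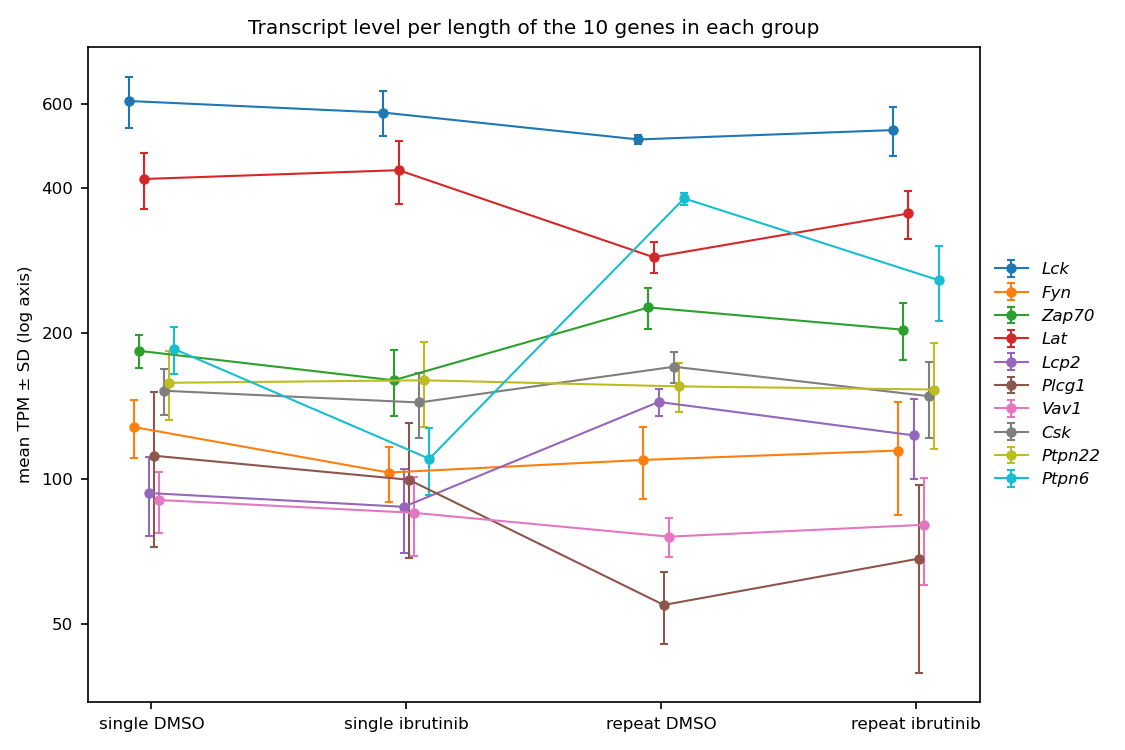
Mean TPM with SD (log axis) of the 10 genes in the 4 groups, with 4 or 5 libraries each and a line joining the means of a gene. Lck is at the top in every group, between 505 and 608 TPM, and Ptpn6 runs from 110 TPM in single cells with ibrutinib to 381 TPM in repeat cells with DMSO.

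The first comparison, repeat against single peptide with DMSO, asks how lasting antigen changed these transcripts. Of the 10 genes 5 fell (Plcg1, Lat, Fyn, Vav1 and Lck), 2 rose (Ptpn6 and Lcp2) and 3 did not pass the test (Zap70, Csk and Ptpn22). The test did not use the pairing of libraries by experiment. With the experiment as a block Ptpn22 fell as well, where 6564 of the 12255 tested genes were called. A gene was called when its adjusted p over all tested genes, by edgeR's quasi-likelihood test, was under 0.05, its log2 fold change exceeded 0.2 in size and its normalized count averaged 50 or more. Without the block 47.0% of all tested genes were called, 22.8% higher and 24.2% lower. The 7 called genes of 10 are thus to be read against a background in which near every other gene moved. The median log2 fold change was -0.24 over the 10 genes and 0.00 over all tested genes. Values below are normalized counts, which are counts scaled to a common library size, unless TPM is named.

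**Figure D2:**
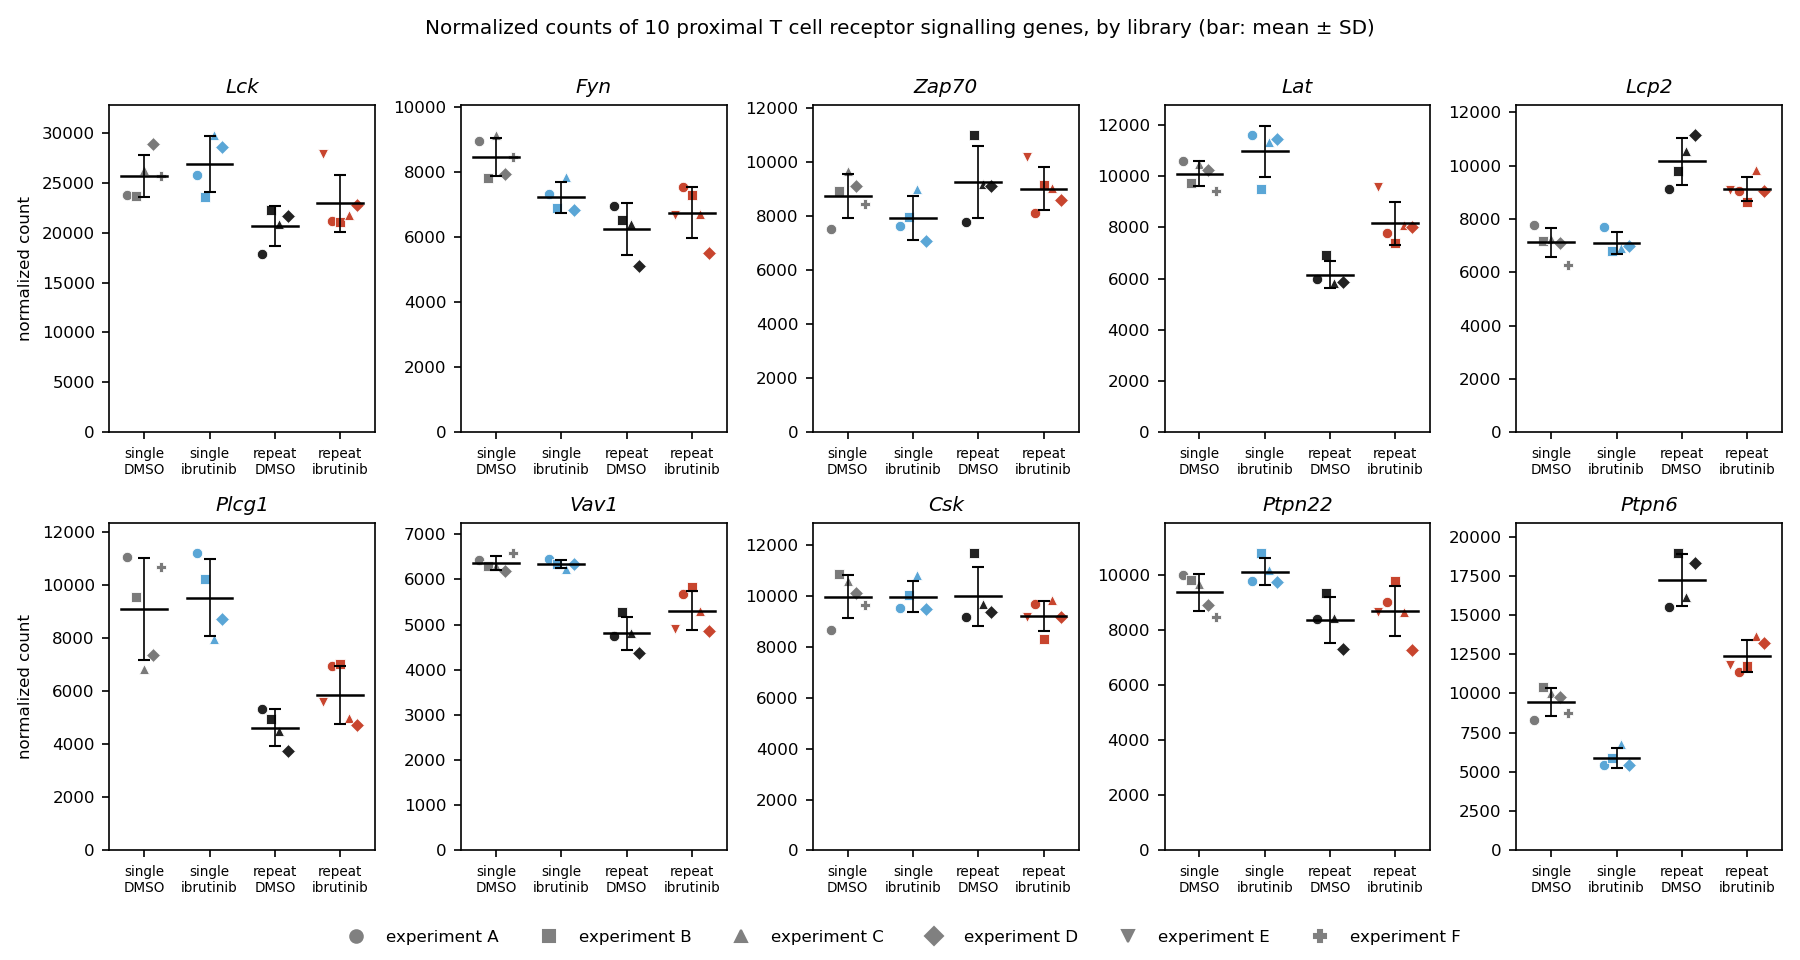
Normalized counts of the 10 genes in each of the 18 libraries, by group, with marker shapes for experiments A to F and bars for the mean ± SD. Lat and Plcg1 lie lower, and Ptpn6 and Lcp2 higher, in all repeat than in all single libraries with DMSO.

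Among the kinases, Lck and Fyn fell and Zap70 did not pass the test. Lck (ENSMUSG00000000409, chr4:129548344-129573641), the main Src family kinase of T cells, had 17810, 22290, 20880 and 21700 normalized counts in repeat libraries A to D and 23740, 23690, 26280, 28860 and 25680 in single libraries A to D and F. The groups did not overlap, and the highest repeat library, B, lay just under the lowest single library, also B. The log2 fold change of Lck was -0.31 (SE 0.113, adjusted p = 0.0265).

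Fyn (ENSMUSG00000019843, chr10:39368855-39565381), the other Src family kinase that binds the CD3 chains, had 6953, 6518, 6411 and 5103 normalized counts in repeat libraries A to D and 8934, 7820, 9133, 7947 and 8458 in single libraries A to D and F. No repeat library reached the lowest single library, and repeat D was the lowest of all. Its log2 fold change was -0.44 (SE 0.103, adjusted p = 0.00160), and it was lower in 4 of 4 experiments. Zap70 (ENSMUSG00000026117, chr1:36761798-36782818), the kinase that docks on the phosphorylated chains, ranged from 7769 to 10990 normalized counts in repeat cells and from 7524 to 9675 in single cells. These ranges overlapped, with a log2 fold change of 0.08 and a 95% confidence interval from -0.14 to 0.31.

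The adaptors moved in opposite directions, Lat down and Lcp2 up. Lat (ENSMUSG00000030742, chr7:126363824-126369570), the membrane scaffold whose promoter is printed above, had 5979, 6929, 5813 and 5849 normalized counts in repeat libraries A to D and 10590, 9741, 10480, 10240 and 9431 in single libraries A to D and F. The groups were far apart, with repeat B standing above the other repeat libraries. The log2 fold change of Lat was -0.72 (SE 0.0933, adjusted p = 5.29e-06), a level 1.64-fold higher in single cells.

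Lcp2 (ENSMUSG00000002699, chr11:34046920-34092295), the cytosolic partner of Lat, had 9137, 9799, 10550 and 11150 normalized counts in repeat libraries A to D and 7784, 7177, 7257, 7116 and 6279 in single libraries A to D and F. Every repeat library was above every single library, and the gap was narrowest in experiment A. The log2 fold change was 0.51 (SE 0.0821, adjusted p = 4.70e-05). As a result the ratio of Lat to Lcp2 in TPM was 2.01 ± 0.256 (SD, n = 4) in repeat and 4.52 ± 0.303 (n = 5) in single cells with DMSO, with ranges of 1.74 to 2.28 and 4.20 to 4.84.

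The effectors Plcg1 and Vav1 both fell, and Plcg1 fell most of the 10 genes. Plcg1 (ENSMUSG00000016933, chr2:160731300-160775760), the phospholipase that starts calcium signalling, had 5327, 4940, 4491 and 3725 normalized counts in repeat libraries A to D and 11070, 9551, 6817, 7361 and 10690 in single libraries A to D and F. The groups did not overlap, and experiments C and D had the lower counts in both groups. The log2 fold change of Plcg1 was -0.98 (SE 0.167, adjusted p = 9.11e-05), a level 1.97-fold higher in single cells, and the differences within experiments A to D ran from -1.05 to -0.60 on the log2 scale.

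On the TPM scale the same libraries touched, since the highest repeat library with DMSO had 66.0 TPM of Plcg1 and the lowest single library 65.6 TPM. Zhx3, on the opposite strand, overlaps Plcg1 and had a median expected count of 434.0 against 7062.0 for Plcg1, and whether counting used strand is not given in the sources used here. Vav1 (ENSMUSG00000034116, chr17:57279100-57328031), the exchange factor for Rac, had 4747, 5276, 4823 and 4366 normalized counts in repeat libraries A to D and 6432, 6296, 6293, 6180 and 6588 in single libraries A to D and F. The single libraries lay close together, with an SD of 2.46% of their mean, and all repeat libraries were below them. The log2 fold change of Vav1 was -0.40 (SE 0.0754, adjusted p = 0.000205).

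Among the inhibitors only Ptpn6 passed the test, and it rose. Ptpn6 (ENSMUSG00000004266, chr6:124720707-124738714) had 15510, 18960, 16170 and 18300 normalized counts in repeat libraries A to D and 8307, 10440, 10020, 9771 and 8732 in single libraries A to D and F. The lowest repeat library exceeded the highest single library by a wide gap, and the gene was higher in 4 of 4 experiments. Its log2 fold change was 0.87 (SE 0.101, adjusted p = 1.48e-06), a 1.82-fold higher level, and the differences within experiments ran from 0.69 to 0.91.

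Csk (ENSMUSG00000032312, chr9:57626646-57653631), the kinase that restrains Lck and Fyn, ranged from 9168 to 11710 normalized counts in repeat and from 8692 to 10860 in single cells with DMSO. Its log2 fold change of 0.00 had a 95% confidence interval from -0.195 to 0.195, the values of the 2 groups lying almost on top of each other. Ptpn22 (ENSMUSG00000027843, chr3:103859795-103912247), the phosphatase that acts together with Csk, ranged from 7317 to 9356 in repeat and from 8471 to 10010 in single cells. Its log2 fold change was -0.16, with an interval from -0.36 to 0.03 and adjusted p = 0.153, although the gene was lower in 4 of 4 experiments. With the experiment as a block, which compares libraries within experiments A to D, Ptpn22 was at -0.20 with adjusted p = 0.0190.

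Of the 10 genes 7, the called ones, had repeat and single libraries that did not overlap, beside 41.4% of all tested genes. Calls and overlap rest on the same counts, so the lack of overlap adds no separate support. The call of Lck was the least firm, since its adjusted p was 0.0939 without repeat DMSO library A, 0.0517 without repeat DMSO library C and 0.0646 without single DMSO library D. Scaling matters here because the 100 genes with most TPM held 39.3 to 43.3% of TPM in repeat and 43.8 to 53.0% in single cells with DMSO. With limma on log2(TPM + 1) the median of all tested genes was 0.14 higher in repeat cells. It called 4330 of the 12255 tested genes, 71.59% of them higher, against 48.55% of called genes on normalized counts. Of the 10 genes 4 were called (Lat, Lcp2, Plcg1 and Ptpn6), to be read against that background. On that scale Lck was at -0.26 (adjusted p = 0.0647), Fyn at -0.23 (adjusted p = 0.323) and Vav1 at -0.24 (adjusted p = 0.279), and all 7 kept their direction.

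The second comparison, ibrutinib against DMSO in repeat peptide stimulated cells, asks whether the drug changed these transcripts while peptide was present. Lat rose and Ptpn6 fell, and the other 8 genes did not pass the test, which did not use the pairing by experiment. With the experiment as a block Plcg1 rose as well, where 1694 of the 12255 tested genes were called. Without the block 5.92% of all tested genes were called, 4.01% higher and 1.92% lower. The repeat libraries with DMSO serve in this comparison and in the first, as the single libraries with DMSO serve in the first and the third and each ibrutinib group in a pair of comparisons. The comparisons are not independent, and their values are only set side by side.

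Lat had 7777, 7369, 8083, 8004 and 9564 normalized counts in repeat libraries A to E with ibrutinib, against 5813 to 6929 with DMSO. All ibrutinib libraries were above all DMSO libraries, with E the highest and B the nearest to DMSO. In TPM the groups overlapped, as E was the lowest ibrutinib library at 298.1 and the highest DMSO library had 305.7. The log2 fold change was 0.41 (SE 0.0927, adjusted p = 0.0116), or 1.33-fold higher, and the differences within experiments were 0.38, 0.09, 0.48 and 0.45 in A to D. The level with ibrutinib, 8159 ± 833 (SD, n = 5), lay between 6143 ± 529 (n = 4) in repeat and 10100 ± 497 (n = 5) in single cells with DMSO. Without repeat DMSO library C the adjusted p of Lat was 0.0531, and with limma on log2(TPM + 1) it was 0.199.

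Ptpn6 had 11360, 11750, 13670, 13210 and 11800 normalized counts in repeat libraries A to E with ibrutinib, against 15510 to 18960 with DMSO. The groups did not overlap, and the gene was lower with ibrutinib in 4 of 4 experiments, by -0.24 in C to -0.69 in B on the log2 scale. Its log2 fold change was -0.48 (SE 0.101, adjusted p = 0.00705), a level 1.39-fold higher with DMSO. Groups without overlap were found for 10.1% of all tested genes, and Lat and Ptpn6 were the 2 of the 10 genes among them.

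Plcg1 was the nearest of the others. It had 6945, 7020, 4999, 4709 and 5575 normalized counts in repeat libraries A to E with ibrutinib and 5327, 4940, 4491 and 3725 in A to D with DMSO. It was higher with ibrutinib in 4 of 4 experiments, and the groups overlapped, with A and B above C and D under either treatment. The log2 fold change of 0.34 had a 95% confidence interval from -0.01 to 0.69 and adjusted p = 0.239. With the experiment as a block Plcg1 was at 0.34 with adjusted p = 0.00952, which added it to the called genes, while the block raised the calls among all genes from 726 to 1694.

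In 4 of 4 experiments Vav1 also had more counts with ibrutinib, at a log2 fold change of 0.14 (interval -0.01 to 0.30), and so had Fyn, at 0.11 (interval -0.10 to 0.33). Lcp2 was lower in 4 of 4 experiments, at -0.16 with an interval from -0.33 to 0.02. These 3 genes were not called. How many of all tested genes went the same way in 4 of 4 experiments was not counted, so such agreement has no background here. Lck was at 0.15 (interval -0.09 to 0.39) with library E far above the others at 27890 normalized counts, where libraries A to D lay between 21060 and 22710. In TPM library E was instead the lowest of the ibrutinib libraries, at 463.5. Csk at -0.11, Ptpn22 at 0.05 and Zap70 at -0.04 had intervals that included 0 and lay between -0.31 and 0.25.

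**Figure D3:**
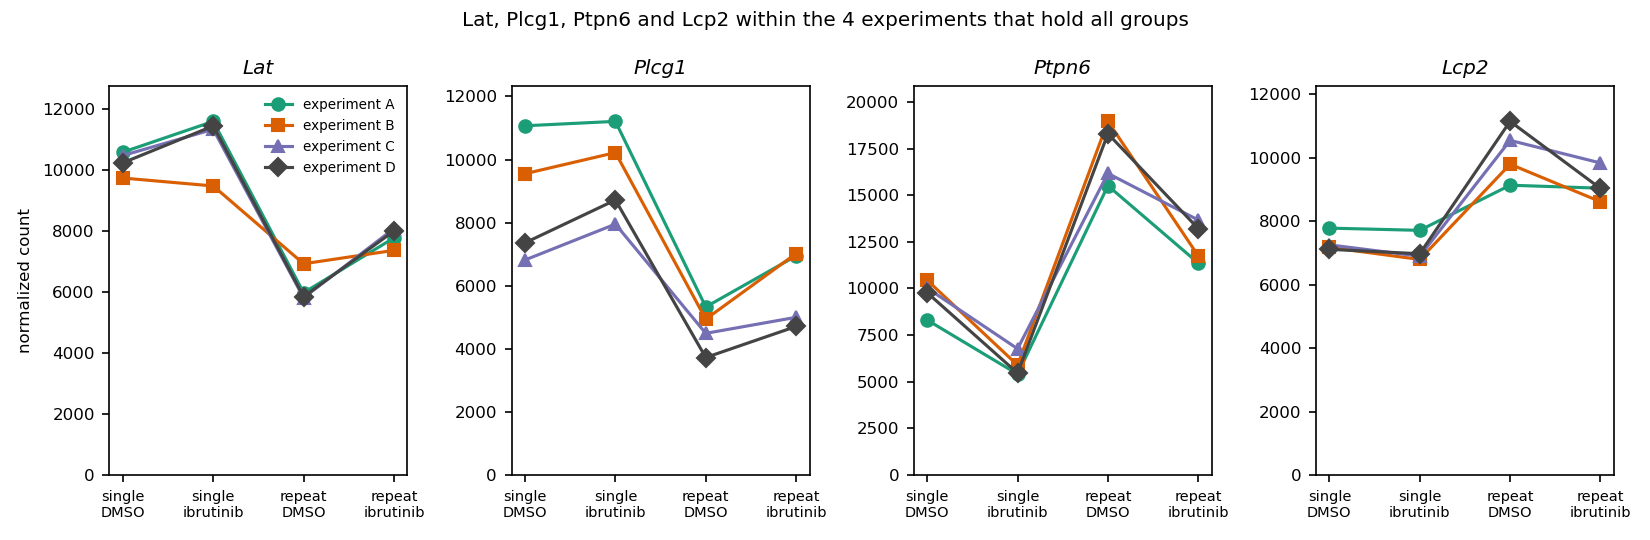
Normalized counts of Lat, Plcg1, Ptpn6 and Lcp2 in the 4 groups, with a line for each of experiments A to D. In all 4 experiments Lat and Plcg1 are lowest in repeat cells with DMSO and Ptpn6 and Lcp2 highest, and each repeat library with ibrutinib lies between the repeat and the single library with DMSO of its experiment.

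The third comparison, ibrutinib against DMSO in single peptide stimulated cells, shows the drug in cells from which peptide had been removed. Ptpn6 was the only gene of the 10 that passed the test, and it fell. Single libraries A to D with ibrutinib had 5408, 5889, 6768 and 5462 normalized counts, against 8307 to 10440 with DMSO. The highest ibrutinib library was below the lowest DMSO library, and every experiment went the same way, by -0.57 in C to -0.84 in D. The log2 fold change was -0.68 (SE 0.103, adjusted p = 0.00185), a level 1.61-fold higher with DMSO. Among all tested genes 3.04% were called and 2.69% were called lower, and 6.39% had groups without overlap.

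Fyn was lower with ibrutinib in 4 of 4 experiments in single cells, by -0.18 to -0.29 on the log2 scale, without passing the test. Its libraries A to D had 7321, 6892, 7835 and 6824 normalized counts with ibrutinib against 8934, 7820, 9133 and 7947 with DMSO, where F had 8458. The highest ibrutinib library, C, lay just above the lowest DMSO library, B. The log2 fold change was -0.23 (unadjusted p = 0.0385 by edgeR's quasi-likelihood test, adjusted p = 0.322). Lat was at 0.12 with an interval from -0.07 to 0.31, Plcg1 at 0.07 with an interval from -0.28 to 0.41, and Zap70 at -0.14 with an interval from -0.37 to 0.08. Vav1, Lcp2 and Csk differed least, with intervals inside -0.195 to 0.195, and Lck and Ptpn22 were at 0.07 and 0.11 with intervals that included 0.

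Whether the effect of ibrutinib differed between repeat and single cells was tested as an interaction, and 0 of the 10 genes were called by edgeR, where 1.26% of all tested genes were. Fyn (difference of effects 0.34, unadjusted p = 0.0306, adjusted p = 0.360) and Lat (0.29, unadjusted p = 0.0385, adjusted p = 0.391) were the 2 of the 10 genes under an unadjusted p of 0.05. Of all 12255 tested genes, 1397 were under it. DESeq2's Wald test also called 0 of the 10. The effects on Ptpn6, -0.48 in repeat and -0.68 in single cells, differed by 0.20 with an interval from -0.10 to 0.51. That the call of Lat was confined to repeat cells is therefore not shown to be a difference between the 2 kinds of cell.

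With ibrutinib in both, repeat against single cells gave 5 called genes of 10, with Ptpn6 and Lcp2 higher and Plcg1, Lat and Vav1 lower. Among all tested genes 38.4% were called, 18.7% higher and 19.6% lower. The log2 fold changes were 1.07 (SE 0.104) for Ptpn6, 0.36 (SE 0.0829) for Lcp2, -0.70 (SE 0.163) for Plcg1, -0.43 (SE 0.0916) for Lat and -0.26 (SE 0.0746) for Vav1, with adjusted p from 3.07e-07 for Ptpn6 to 0.0100 for Vav1. The values for the same genes with DMSO were 0.87, 0.51, -0.98, -0.72 and -0.40, from other libraries of experiments A to D and from F, where the comparison with ibrutinib has E. The repeat library of highest Lat, E at 9564 normalized counts, stood just above the lowest single library with ibrutinib, B at 9481, so that Lat was the called gene whose groups overlapped. With the experiment as a block Lck (-0.31, adjusted p = 0.00572) and Ptpn22 (-0.23, adjusted p = 0.0105) were called as well, where 5950 of the 12255 tested genes were. With limma on log2(TPM + 1) the called genes were Lcp2, Ptpn6 and Zap70, the last at 0.35 with adjusted p = 0.0375, where 2994 of all tested genes were called.

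**Figure D4:**
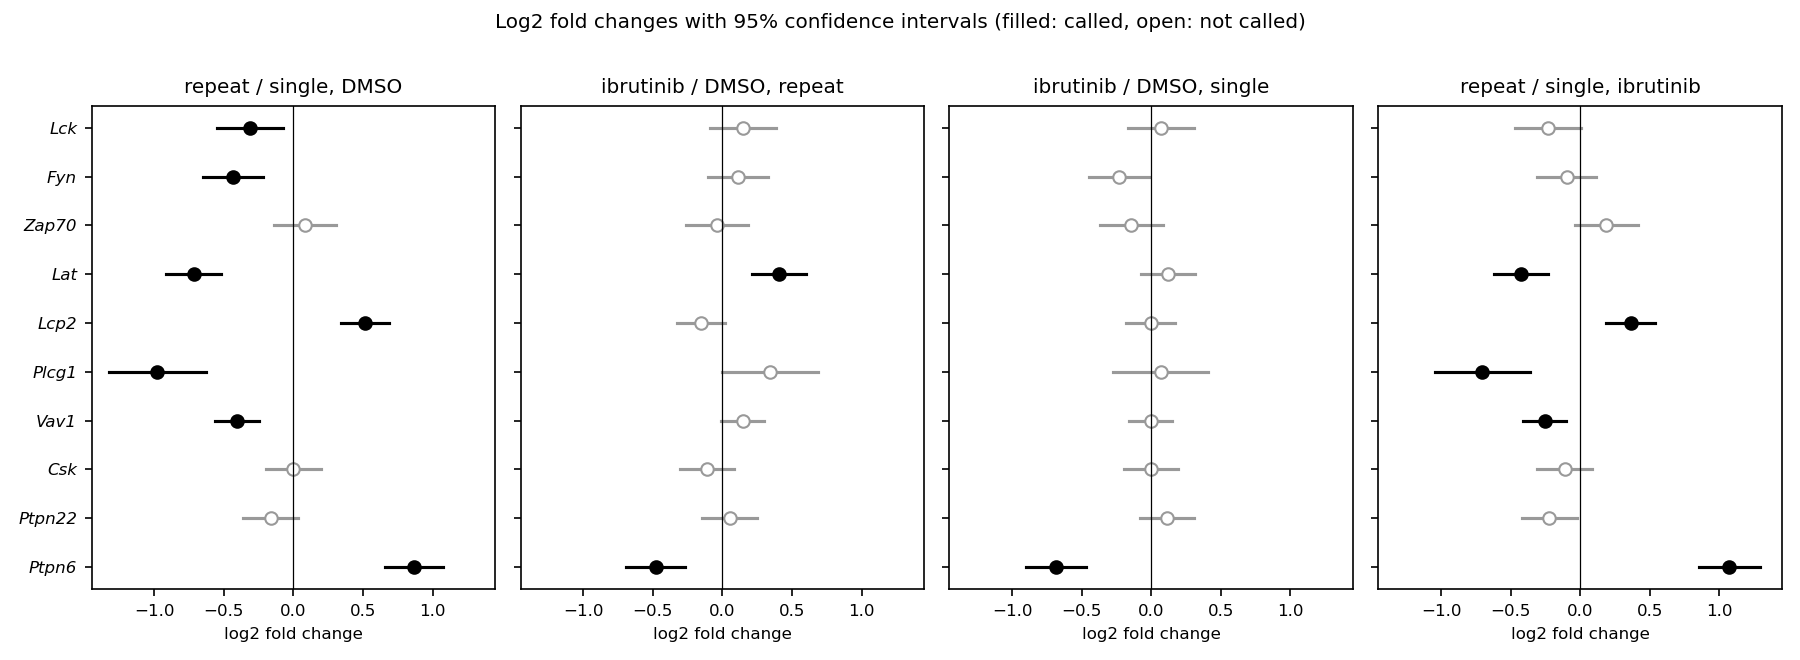
Log2 fold changes with 95% confidence intervals of the 10 genes in 4 comparisons, filled where the gene was called. Plcg1 lies furthest to the left at -0.98 in repeat against single cells with DMSO, and Ptpn6 is filled in all 4 panels.

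Levels of partners relative to each other were compared as TPM ratios within libraries, as a description. The ratio of Zap70 to Ptpn6 was 0.594 ± 0.0552 (SD, n = 4) in repeat cells with DMSO, 0.802 ± 0.111 (n = 5) in repeat cells with ibrutinib, 0.995 ± 0.0363 (n = 5) in single cells with DMSO and 1.46 ± 0.0300 (n = 4) in single cells with ibrutinib. The ranges of the 4 groups did not overlap except between repeat cells with ibrutinib, up to 0.973, and single cells with DMSO, from 0.940. The ratio of Lck to its inhibitor Csk was 2.98 ± 0.234, 3.63 ± 0.490, 4.01 ± 0.420 and 4.02 ± 0.278 in the same order, and the lowest library of single cells with DMSO, at 3.56, was above the highest of repeat cells with DMSO, at 3.26. The ratio of Lck to Fyn averaged 4.74, 4.80 and 4.79 in the first 3 groups, whose ranges overlapped. In single cells with ibrutinib it averaged 5.60, from 5.47 to 5.91, above the 4.00 to 5.24 of single cells with DMSO. Repeat cells reached 5.98 with DMSO and 5.95 with ibrutinib.

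The receptor itself changed unevenly. Of 6 genes for the CD3 and zeta chains and CD8, 2 rose and 3 fell with repeat peptide and DMSO, beside 47.0% of all tested genes called, with a median log2 fold change of -0.18. Cd3g was at 0.67 (SE 0.165, adjusted p = 0.00217) and Cd3e at 0.23 (SE 0.0939, adjusted p = 0.0443), while Cd8b1, the beta chain of the coreceptor that carries Lck, was at -1.54 (SE 0.136, adjusted p = 5.48e-08). Cd247, the zeta chain with most of the docking sites for Zap70, had 2909 to 3770 normalized counts in repeat and 6094 to 8546 in single cells with DMSO, at -1.12 (SE 0.143, adjusted p = 4.33e-06). In repeat cells with ibrutinib Cd247 had 3933 to 6480, at 0.54 (SE 0.141, adjusted p = 0.0257) against DMSO, and it was the 1 gene of these 6 that passed.

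Most other activating partners, a list chosen with earlier results of these data known, were lower in repeat cells. Of 19 such genes 14 fell and 2 rose with DMSO, beside 24.2% of all tested genes lower and 22.8% higher, with a median log2 fold change of -0.75 beside 0.00 for all tested genes. Among called genes the largest falls were those of Txk, a Tec family kinase that acts on Plcg1, at -2.99 (SE 0.266, adjusted p = 5.95e-08), and of Grap2, also called Gads, which links Lat to Lcp2, at -1.77 (SE 0.133, adjusted p = 7.77e-09). Txk had 334 to 862 normalized counts in repeat cells with DMSO, 846 to 1828, an overlap at the edge, in repeat cells with ibrutinib and 3558 to 5092 in single cells with DMSO. The 2 genes that rose were the adaptors Sh3bp2, at 1.14 (SE 0.136), and Sh2d2a, at 0.46 (SE 0.0914).

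With ibrutinib in repeat cells, 5 of these 19 genes rose and 1 fell, beside 5.92% of all tested genes called, with a median of 0.27. Txk was at 1.22 (SE 0.249, adjusted p = 0.00547) and Grap2 at 0.73 (SE 0.129, adjusted p = 0.00187), while Sh2d2a was at -0.45 (SE 0.0914, adjusted p = 0.00562). Grap2 had 3500 to 4201 normalized counts with DMSO and 5016 to 8310 with ibrutinib, and the single cells with DMSO had 12420 to 15300. In single cells ibrutinib gave 1 rise and 2 falls among the 19 genes, beside 3.04% of all tested genes called.

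Restraining partners moved both ways. Of 17 such genes 6 rose and 4 fell in repeat against single cells with DMSO, with a median of -0.16, and this number of calls is near the 47.0% of all tested genes. The phosphatase Ptpn7 was at 1.96 (SE 0.207, adjusted p = 4.62e-07) and Ubash3b, also called Sts-1, at 1.447 (SE 0.204, adjusted p = 1.29e-05). Pag1, the membrane anchor of Csk, was at -1.83 (SE 0.198, adjusted p = 6.37e-07), where Csk itself was at 0.00, and Sit1 was at -0.97 (SE 0.214). With ibrutinib in repeat cells Sit1 was at 0.82 (SE 0.213, adjusted p = 0.0266) and Dok2 at 0.34 (SE 0.0986, adjusted p = 0.0479), while Sla, an adaptor that lowers receptor levels, was at -0.79 (SE 0.103, adjusted p = 0.000174). The other 14 did not pass the test, where 5.92% of all tested genes were called, 4.01% higher and 1.92% lower.

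The relatives of the 10 genes from the same families were mostly low in these cells. Syk, the relative of Zap70, was at 0.22 TPM or less in every library, where Zap70 was at 128 TPM or more, and Plcg2 averaged 4.70 TPM in repeat cells with DMSO where Plcg1 averaged 54.7. Of 18 relatives 15 were tested, and 5 rose and 2 fell in repeat against single cells with DMSO, a number of calls at the 47.0% of all tested genes. Lat2, a relative of Lat that is typical of B cells and myeloid cells, had 617 to 1378 normalized counts in repeat and 12.7 to 41.1 in single cells, at 5.06 (SE 0.420, adjusted p = 2.43e-08). In TPM it averaged 40.5 in repeat cells with DMSO, where Lat averaged 288.

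Lyn, a Src family kinase better known in B cells and myeloid cells, had 211 to 450 normalized counts in repeat and 14.8 to 40.02 in single cells with DMSO, at 3.67 (SE 0.341, adjusted p = 1.03e-07). With ibrutinib in repeat cells Lyn was at -1.04 (SE 0.306, adjusted p = 0.0497), the 1 relative that passed there, beside 5.92% of all tested genes called. The 2 that fell with repeat peptide were the phosphatases Ptpn18, at -1.02 (SE 0.358), and Ptpn12, at -0.50 (SE 0.134). Of the 2 tested myeloid markers, Cd14 moved with Lat2 and Lyn and Itgam moved the other way. Cd14 had 34.2 to 83.9 normalized counts in repeat and 0 to 1.28 in single cells with DMSO. In repeat cells with ibrutinib it had 6.83 to 31.3. Itgam had 0 to 19.2 in repeat and 16.6 to 53.7 in single cells with DMSO, ranges that overlapped. In repeat against single cells with DMSO, Cd14 was at 7.35 (adjusted p = 6.46e-07 by edgeR's quasi-likelihood test) and Itgam at -1.82 (adjusted p = 0.0223). Neither of these myeloid genes was called, only because their normalized counts averaged 18.1 and 23.6, under the mean count that a call required. Lyz2, not tested, reached 0.04 TPM in repeat and 5.92 TPM in single cells with DMSO, with a median of 0 in both. The B cell gene Cd79b was lower in repeat cells, with 30.6 to 47.9 normalized counts against 70.7 to 174.6 in single cells with DMSO. Adgre1 and Csf1r were near 0 throughout, and the part of such cells in Lat2 and Lyn was not tested.

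**Figure D5:**
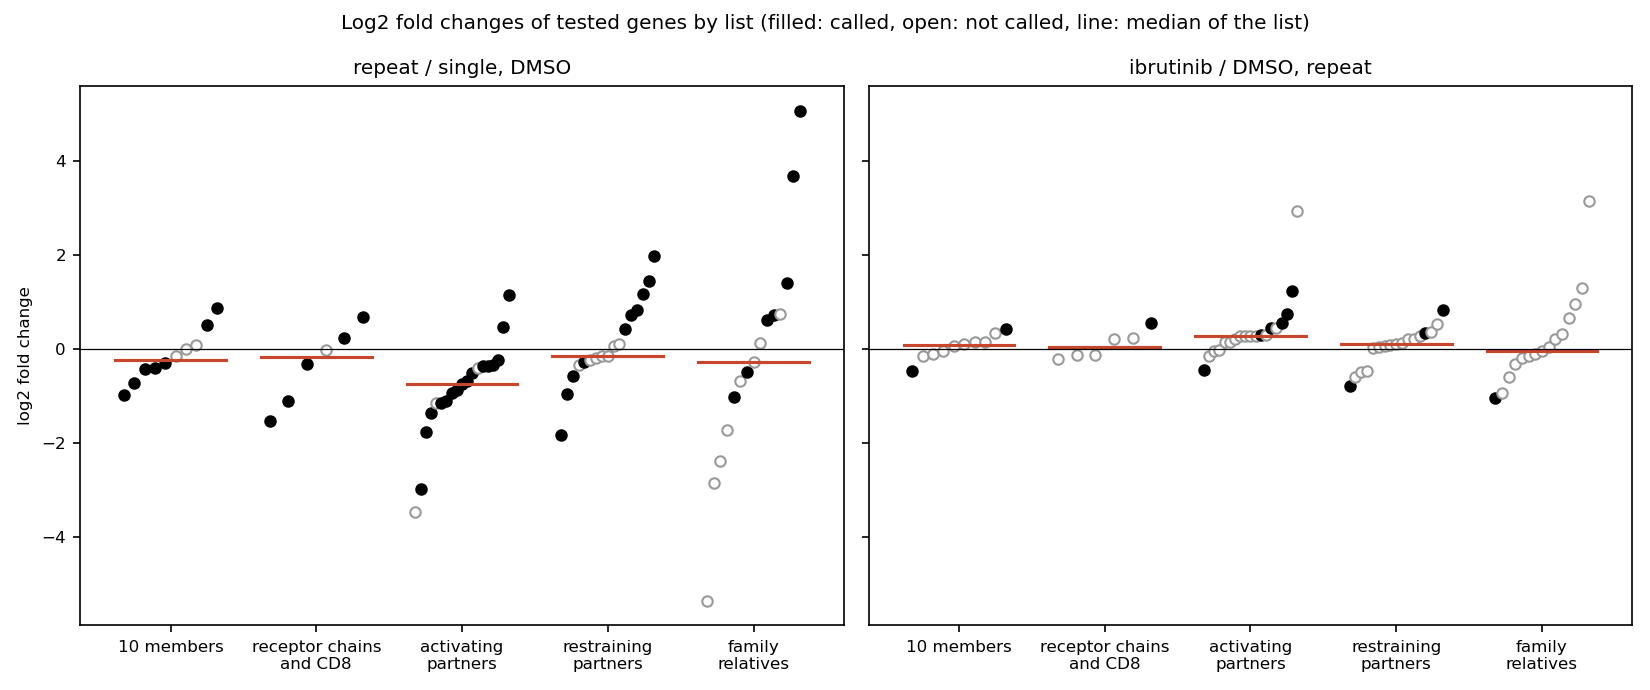
Log2 fold changes of the tested genes of 5 lists in repeat against single cells with DMSO (left) and in ibrutinib against DMSO in repeat cells (right), filled where called, with a line at the median of each list. The medians are -0.24, -0.18, -0.75, -0.16 and -0.27 on the left and 0.08, 0.04, 0.27, 0.10 and -0.04 on the right.

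For 9 of the 10 genes, the tested gene with the most similar pattern was found by Pearson's r of log2 CPM over the 18 libraries, as a description in which all points share libraries and groups. The highest values were 0.987 for Plcg1 with Kmt5b, 0.977 for Ptpn6 with Pdlim7, 0.974 for Lat with Tpst2 and 0.969 for Vav1 with Vps33a. Lck was most like Acy1 (0.965), Lcp2 most like Wdpcp (0.962) and Ptpn22 most like Hp1bp3 (0.890). The lowest of these 9 values belonged to Csk with Ndufa10 (0.778) and Zap70 with Otulin (0.821).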

How the data were processed

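RNA was measured by oligo-dT RNA-seq with a directional kit. The authors trimmed reads and quantified genes with RSEM and STAR on GRCm38, and deposited a table per library. Per the submitters' processing notes the tools were Trim Galore, SAMtools 1.10, RSEM 1.3.1, R 4.0.3 and DESeq2 1.30.0. The expected counts deposited by the authors are estimated counts of fragments per gene. The TPM values deposited by the authors are scaled to the same total in each library, so a few abundant genes lower all others. The effective length of each gene in bases, also deposited by the authors, served in an alternative.

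Expected counts were rounded. Of 45706 listed genes 45143 matched GENCODE M21, 27903 were protein-coding or lncRNA (98.46% of counts) and 12255 passed filterByExpr. Fits were made in R 4.3.3 (DESeq2 1.42.0, limma 3.58.1, edgeR 4.0.16). TMM normalization and a robust quasi-likelihood fit of all 18 libraries in 4 groups gave the comparisons, with p-values adjusted by Benjamini-Hochberg. Groups came from the labels. Nothing in the sources used here says whether the experiments used separate mice, so p-values measure the spread between these samples, which may in part be technical.

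The 10 genes, the lists and the tests were chosen with earlier results of these data known. From each list, up to 2 called genes with the largest rise and 2 with the largest fall in the first and second comparison were named, relatives also by level, and for each of the 10 genes the most correlated other gene (log2 CPM, prior count 2). The most correlated gene of Fyn and 1 marker are not reported here.

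Libraries of an experiment, which the labels' genotype entry gives, were checked for pairing: all 24 pairs from the same experiment and different groups had correlated deviations above 0.1 (median 0.325), against a median of -0.076 in 97 other pairs. Libraries of a group differed beyond counting error (chi-square per degree of freedom of 28.7 or more). Libraries of the same experiment thus deviated together, which the block fit uses and the main fit does not. In the block fit, E and F have no partner and add nothing to the differences. Alternatives were DESeq2's size factors and Wald test, no filter, all gene types, a length offset, no thresholds, the block, only the compared groups, limma on log2(TPM + 1) and each library left out in turn.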

Additional observations from a re-analysis of the deposited data

Results flagged for a closer look

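In 3 of the 40 gene and group combinations a library stood apart from the rest of its group by Dixon's criterion on log2 normalized counts, where chance alone gives about 1 in 20. Lck in repeat cells with ibrutinib was highest in library E, at 27890 normalized counts, with a gap of 0.732 of the range. In TPM the same library was the lowest of that group, at 463.5. The 100 genes with most TPM held 53.2% of TPM in E, against 39.5 to 45.3% in A to D with ibrutinib. Lat in repeat cells with DMSO was highest in library B, at 6929 (0.840 of the range), and Lat in single cells with ibrutinib was lowest in library B, at 9481 (0.888 of the range). The Lat call in repeat against single cells with DMSO held without repeat DMSO library B, at a log2 fold change of -0.78.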

How the results depend on the processing

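Of 980 values of single genes under the alternatives, 928 kept their direction and their side of the threshold, 12 lost and 8 gained the call, and 32 turned direction, all of these small and not called. The count of called genes among the 10 was 7 in repeat against single cells with DMSO (4 to 8 over all alternatives, 6 to 7 with a library left out) and 2 for ibrutinib in repeat cells (1 to 3, and 1 to 2). It was 1 for ibrutinib in single cells under every alternative, 5 in repeat against single cells with ibrutinib (3 to 7, and 5 to 6) and 0 for the interaction under every alternative. With limma on log2(TPM + 1) the counts were 4, 1, 1, 3 and 0. Of the 12255 tested genes 4330, 391, 161, 2994 and 77 were called in the same order. Without repeat DMSO library C the count for ibrutinib in repeat cells was 1, where 393 of all tested genes were called. The cause was not tested.

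With the experiment as a replicate block the counts were 8, 3, 1, 7 and 0. Of the 12255 tested genes 6564, 1694, 1114, 5950 and 679 were called in the same order. The block added Ptpn22 in the first comparison, Plcg1 in the second and Lck and Ptpn22 in repeat against single cells with ibrutinib, and it changed no other call. In repeat against single cells with ibrutinib, Lck was also called with a length offset (adjusted p = 0.0443) and without repeat ibrutinib library E (adjusted p = 0.0217), and Ptpn22 without repeat ibrutinib library B (adjusted p = 0.0484). Vav1 there lost its call with no filter (adjusted p = 0.0507).

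Among values that turned direction, Csk in the first comparison was -0.01239 with no filter and -0.01134 with the replicate block. For ibrutinib in single cells, all gene types gave 0.004473 for Lcp2, 0.005451 for Vav1 and 0.009592 for Csk, a length offset gave -0.07672 for Plcg1 and 0.003854 for Csk, and the replicate block gave 0.008936 for Vav1. With limma on log2(TPM + 1), Ptpn22 for ibrutinib in repeat cells was -0.04803, Lck and Plcg1 for ibrutinib in single cells were -0.07744 and -0.1371, and Fyn and Csk in repeat against single cells with ibrutinib were 0.118 and 0.03507. With each library left out in turn, Zap70 ran from -0.00718 to 0.1582 and Csk from -0.08268 to 0.03941 in the first comparison, and Zap70 from -0.114 to 0.06411 for ibrutinib in repeat cells. For ibrutinib in single cells, Lcp2 ran from -0.06266 to 0.02858, Plcg1 from -0.03663 to 0.147, Vav1 from -0.02708 to 0.008799 and Csk from -0.05261 to 0.02256, and Ptpn22 in the interaction ran from -0.09414 to 0.02196.

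Counts of calls over all genes moved more. For ibrutinib in repeat cells 726 genes were called, against 1694 with the block, 464 with only the compared groups, 1165 by DESeq2's Wald test, 391 by limma on TPM, and 393, 354 and 478 without repeat DMSO library C, repeat DMSO library D and repeat ibrutinib library A. For ibrutinib in single cells 373 were called, against 1114 with the block, 181, 612 and 161 in the same order, and 198, 239, 131, 205 and 152 without single DMSO libraries C and D and single ibrutinib libraries A, B and D. The interaction had 154, against 679 with the block, 350 by DESeq2, 77 by limma, and 84 and 89 without repeat DMSO library C and single ibrutinib library D, and repeat against single cells with ibrutinib had 4703, against 2994 by limma. The share of calls that were higher moved with limma on TPM from 67.63% to 37.08% for ibrutinib in repeat cells, from 11.53% to 1.863% in single cells, from 48.8% to 78.82% in repeat against single cells with ibrutinib and from 83.12% to 64.94% in the interaction, and with the block from 11.53% to 30.52% in single cells.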
